A study of Mus musculus with 11 samples.

Results

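The cytosolic ribosomal protein genes of mouse granulocyte-monocyte progenitors were examined here. They were taken by name: protein-coding symbols of the Rpl and Rps series, with Rplp0, Rplp1, Rplp2 and Rpsa, matched to the Ensembl gene IDs of the deposited counts. Of the 84 such genes in the annotation, 83 were among the 37583 gene IDs of the counts, 51 of the large and 32 of the small subunit; Rpl24 was not analysed here. RNA had been sequenced from 11 clonal lines, 6 of them wild-type (WT clones 1A, 1B, 1C, 2D, 2E, 2F). The other 5 carry a knockout (KO clones 3H, 3I, 4J, 4K, 4L) of tafazzin, the mitochondrial enzyme that remodels cardiolipin, whose gene is Taz. All 11 lines, the controls included, carry ER-Hoxb8, an oestrogen-dependent Hoxb8 that holds progenitors in a dividing state, and were made from the fetal liver of C57BL/6 embryos of day 15.5. Their medium held beta-estradiol (0.5 uM) and stem cell factor (about 50 ng/ml) in every case. Each line is 1 clone, so the samples of a genotype differ by clone as well as by culture, and the p-values below measure the spread between these clones. What the title numbers mean (1 and 2 in WT, 3 and 4 in KO) is not stated in these sources.

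Cytosolic ribosomes translate the mRNA of nuclear genes. The small subunit holds and reads the mRNA, and the large subunit joins the amino acids and carries the stalk that recruits the elongation factors. Ribosomal protein mRNAs begin with a run of pyrimidines (C and T), the terminal oligopyrimidine (TOP) tract, through which mTORC1 and the RNA-binding protein Larp1 control their translation and stability together. Ribosomal protein genes have also left many processed pseudogenes, copies of their mRNA scattered over the genome.

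A TOP tract is a pyrimidine run at the start of the mRNA. The longest run near the annotated start is shown for 8 called members, followed by 3 paralogues that were not called. The 8 are those with the smallest adjusted p that have an entry in the promoter table. RefSeq promoters of GRCm38.p6 (250 bases before to 50 after the annotated start) were found for 63 of the 83 genes. Each line gives 30 bases of the transcribed strand, 5′ to 3′, with the longest run of C or T between 20 bases before and 50 bases after the annotated start in capitals. Where a gene had several annotated starts, the one with the longest run is shown. These coordinates belong to GRCm38, whereas the counts were made on mm9.

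Rps15a (chr7:118116141-118116170, minus strand): ccggcccaCTCTCTTTCTgccatcttccct
Rpl18 (chr7:45718064-45718093, plus strand): gcaggccgCTCTTTCCCCgcccactccggc
Rpl34 (chr3:130730333-130730362, minus strand): ctcacccgCCCCTTCCTTTTCCTCTTCCgg
Rps4x (chrX:102189342-102189371, minus strand): cgcgcagcctccgaccctaaTTTCTTCgtt
Rpl35a (chr16:33056469-33056498, plus strand): ggggcttgCCTTCCTCTTTCCgccatcttg
Rps15 (chr10:80292448-80292477, plus strand): agcccgtaCTTCCTTTTCCgagtaaccgcc
Rpl13a (chr7:45128722-45128751, minus strand): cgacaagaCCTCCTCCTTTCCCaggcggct
Rpl26 (chr11:68901579-68901608, plus strand): gcgtgtagTTCTCTTTCCTTTTgcggccat
Rpl7l1 (chr17:46782654-46782683, minus strand): ctaccccgCCCggtgaggctgcgcaagcgc
Rpl22l1 (chr3:28805501-28805530, plus strand): caagcccgTTCTCTTCCCacggctgcagct
Rps27l (chr9:66946066-66946095, plus strand): cctctccaCTCCTCCCCgccgcctctatcc

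The capitals ran for 10 bases in Rps15a and Rpl18, 20 in Rpl34 and 14 in Rpl13a and Rpl26, but for 7 in Rps4x and 3 in Rpl7l1. Counted from the annotated start, they began at positions from -19 (Rpl7l1) to 41 (Rps4x). In Rpl26, Rpl35a and Rps15 they began at 22, 25 and 26. Whether the capitals are the TOP tracts of these mRNAs was not tested. A run of at least 8 pyrimidines lay in this stretch in 49 of the 63 members with an entry (77.8%), against 28.5% of all 27025 genes of the table. Among the 18 called members with an entry, 16 had such a run (88.9%), and among the 43 tested members that were not called, 33 had one (76.7%). In the whole 300-base window, CCGGAAG, the core that Ets factors such as Gabpa bind, stood on either strand in 41.3% of the members and in 9.93% of all genes. AAGATGG, the core of the Yy1 motif, stood on either strand in 15.9% of the members and in 7.28% of all genes. By call, CCGGAAG was in 5 of 18 called and 20 of 43 not called members, and AAGATGG in 4 of 18 and 6 of 43. These are matches of letters in windows around annotated starts. A gene with several annotated starts was counted if any of them had the run or motif, and the 27025 genes had 32851 windows. Read on the other strand, CCGGAAG is CTTCCGG, whose first 5 letters can lie within a pyrimidine run, so these features can overlap.

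Reads that matched several places in the genome were not counted for any gene, so what is counted of a ribosomal protein gene is only what its copies do not share. For each gene the share of 50-base stretches of its mRNA that also occur in annotated transcripts of other genes, pseudogenes included, ran from 0% to 98.6%. Across the 81 genes with a fitted value, this share and the counted level per length had a Spearman rho of -0.46, as a description over genes that share their libraries. The 10 genes with under 25% of their mRNA copied had a median of 546 CPM (counts scaled to a common library size) per kilobase of mRNA, the 26 genes with over 75% copied a median of 18.9. Counted level per length was highest for Rpl8, which lies at the peptidyl transferase centre, with 1907 CPM per kilobase and 7.86% of its mRNA copied. Rpl4, which lines the exit tunnel, had 1674 CPM per kilobase and 16.5% copied. At the other end, Rps27 had 98.6% of its mRNA copied and 11 to 31 counts per clone, and Rpl10 92.1% copied and 288 to 481 counts. The copied share is no full account of low counts: Rps29 had 35.8% of its mRNA copied and 2.11 CPM per kilobase. The coding stretches below are shown because each stands letter for letter in other annotated genes, so that a read inside one has no single place. They come from the transcripts Rps27-201 (bases 197 to 246) and Rpl10-201 (bases 210 to 259) of the GRCm38 annotation.

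Rps27, also in 5 other genes, 1 of them protein coding: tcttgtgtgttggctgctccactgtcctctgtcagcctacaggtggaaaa
Rpl10, also in 10 other genes, 1 of them protein coding: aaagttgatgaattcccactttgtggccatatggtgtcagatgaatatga

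Counted levels are therefore compared between clones for 1 gene, and are no ranking of mRNA abundance between these genes. Rps20 is a further exception, because its annotated mRNA used for the length (3706 bases) is far longer than that of the other small subunit genes.

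**Figure D1:**
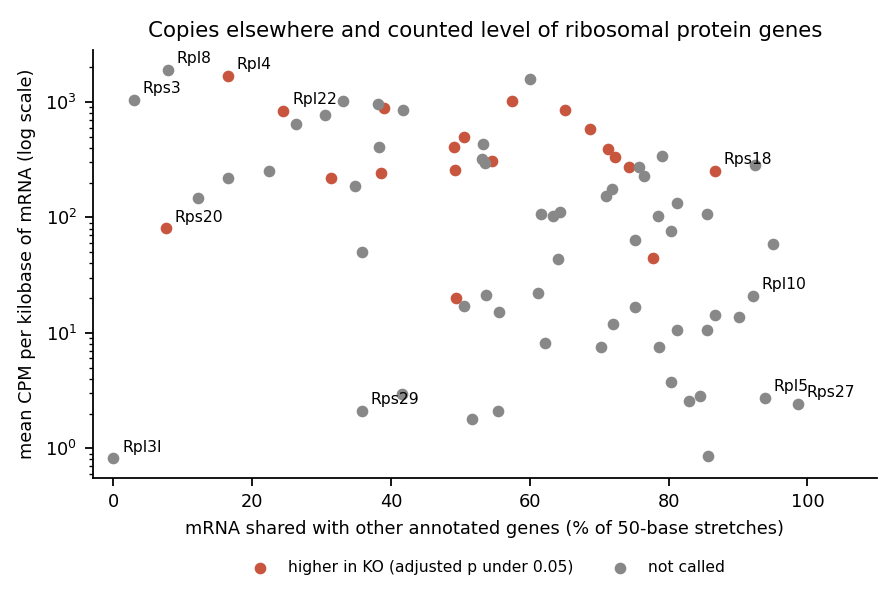
Mean CPM per kilobase of mRNA (log scale) of 77 of the 81 tested ribosomal protein genes against the share of their 50-base mRNA stretches found in other annotated genes. Red points are 19 of the 22 genes called higher in KO, grey points are genes not called. Rpl8 and Rpl4 stand highest with under 25% copied, and Rps27 stands at the far right with 98.6% copied.

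Gene counts came to 21966954 to 27431544 in WT and 19778119 to 23658158 in KO clones, and were higher on average in WT (two-sided exact permutation p = 0.0303 over 462 splits). Taz itself fell from 39.1 ± 2.54 CPM in WT to 3.23 ± 0.685 in KO clones, a log2 fold change of -3.60 ± 0.14 (SE), with an edgeR adjusted p of 4.08e-07. All 5 KO clones lay below all 6 WT clones. Markers of granulocyte-monocyte progenitors and primary granules summed to 13702 to 22760 CPM in WT and 12797 to 20298 in KO clones. Late neutrophil markers summed to 30.1 to 1641 CPM in WT, where WT 2D stood apart, and 32.2 to 181 in KO clones. B and T lymphoid marker sums did not overlap (7.68 to 27.4 CPM in KO and 32.9 to 52.1 CPM in WT clones), with Cd3e, Cd8a and Pax5 at 0 in every clone. Of 4 tested genes, edgeR called 1 lower (Cd79b), DESeq2 1 and limma-voom 0, beside 2.29% of all tested genes with edgeR. Ebf1 of this list overlapped (22.9 to 42.2 CPM in WT and 3.56 to 26.6 in KO clones) and was not called. The sums of the monocyte and macrophage, erythroid, mast cell, basophil and megakaryocyte, and hepatocyte and stroma lists overlapped between genotypes, with C1qa and C1qc, Hba-a2, and Cdh5, Col1a1 and Ttr at 0 throughout. The part of these markers in the results below was not tested.

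Ribosomal protein transcripts took a larger share of the counts in tafazzin KO clones. The 83 genes held 1.95%, 2.01% and 2.14% of gene counts in WT clones (lowest, median and highest) and 2.29%, 2.19%, 2.15%, 2.15% and 2.26% in KO 3H, 3I, 4J, 4K and 4L. The genotypes did not overlap, but WT 2F at 2.144% lay next to KO 4J at 2.148%. Summed over the genes, KO clones held 1.09 times the CPM of WT clones. Both subunits shared in it: large subunit genes held 1.17 ± 0.0389% in WT and 1.27 ± 0.0336% in KO clones, and small subunit genes 0.856 ± 0.0312% and 0.938 ± 0.0321% (SD, n = 6 and 5). The ratio of large to small subunit counts was 1.37 ± 0.0243 in WT and 1.36 ± 0.0215 in KO clones, with overlapping ranges (1.35 to 1.41 and 1.34 to 1.39). In bulk RNA, a different mix of cells and a different amount of this RNA per cell cannot be told apart.

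**Figure D2:**
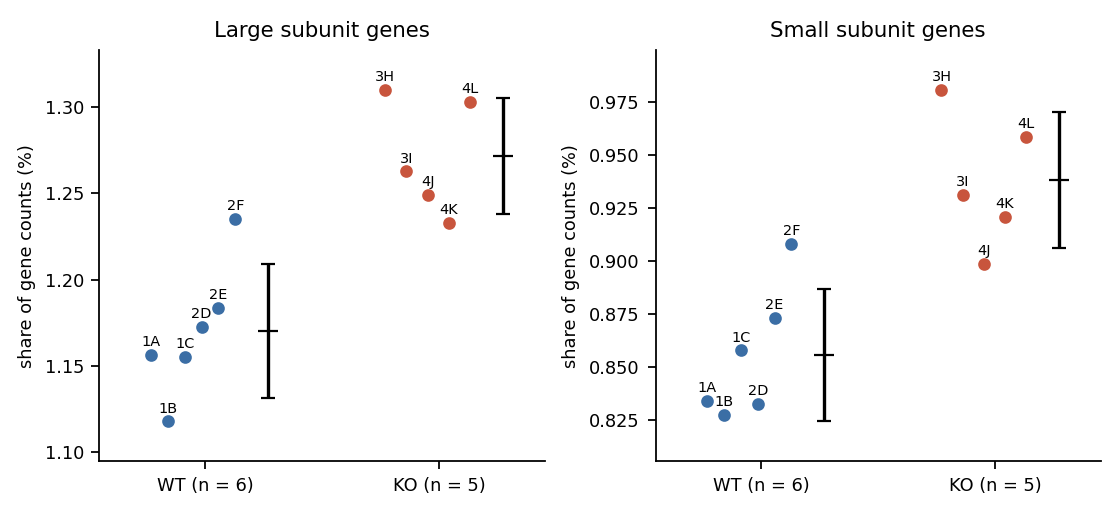
Share of gene counts (%) held by large (left) and small (right) subunit genes in each clone, with the mean and SD of 6 WT and 5 KO clones beside the points. The axes do not start at 0. In the large subunit WT 2F (1.235%) lies just above KO 4K (1.233%), and in the small subunit WT 2F (0.908%) above KO 4J (0.899%).

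Of the 83 genes, 81 passed the filter on low counts; Rpl10l and Rpl39l had no count in any clone. With edgeR, 22 of the 81 (27.2%) were higher in KO at an adjusted p under 0.05, where 2.76% of all 11900 tested genes were called higher. None was called lower (background 2.29%), although 2 had an unadjusted p under 0.05 in that direction; DESeq2 called 1 lower and limma-voom 0. The calls fell on 14 of 49 large subunit genes and 8 of 32 small subunit genes. Fold changes were small: the called genes named below were 9.44% to 17.2% higher in KO, and the median log2 fold change was 0.10 over the 81 genes, 0.08 in the large and 0.12 in the small subunit, against -0.01 over all tested genes. In 64 of the 81 the change was positive, against 48.4% of all tested genes. In 23 genes every KO clone lay above every WT clone (background 2.97%), and in 1, Rpl7l1, every KO clone lay below (background 3.02%).

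The count of calls depended on which clones were present, while the median did not change sign. Leaving out 1 clone gave 7 to 21 calls, with 7 without KO 3H, 8 without WT 1A, WT 1B or KO 4L, 9 without WT 1C or KO 3I, 12 without KO 4J and 14 without KO 4K. With counts summed per title number, 2 sums against 2, 1 gene was called.

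**Figure D3:**
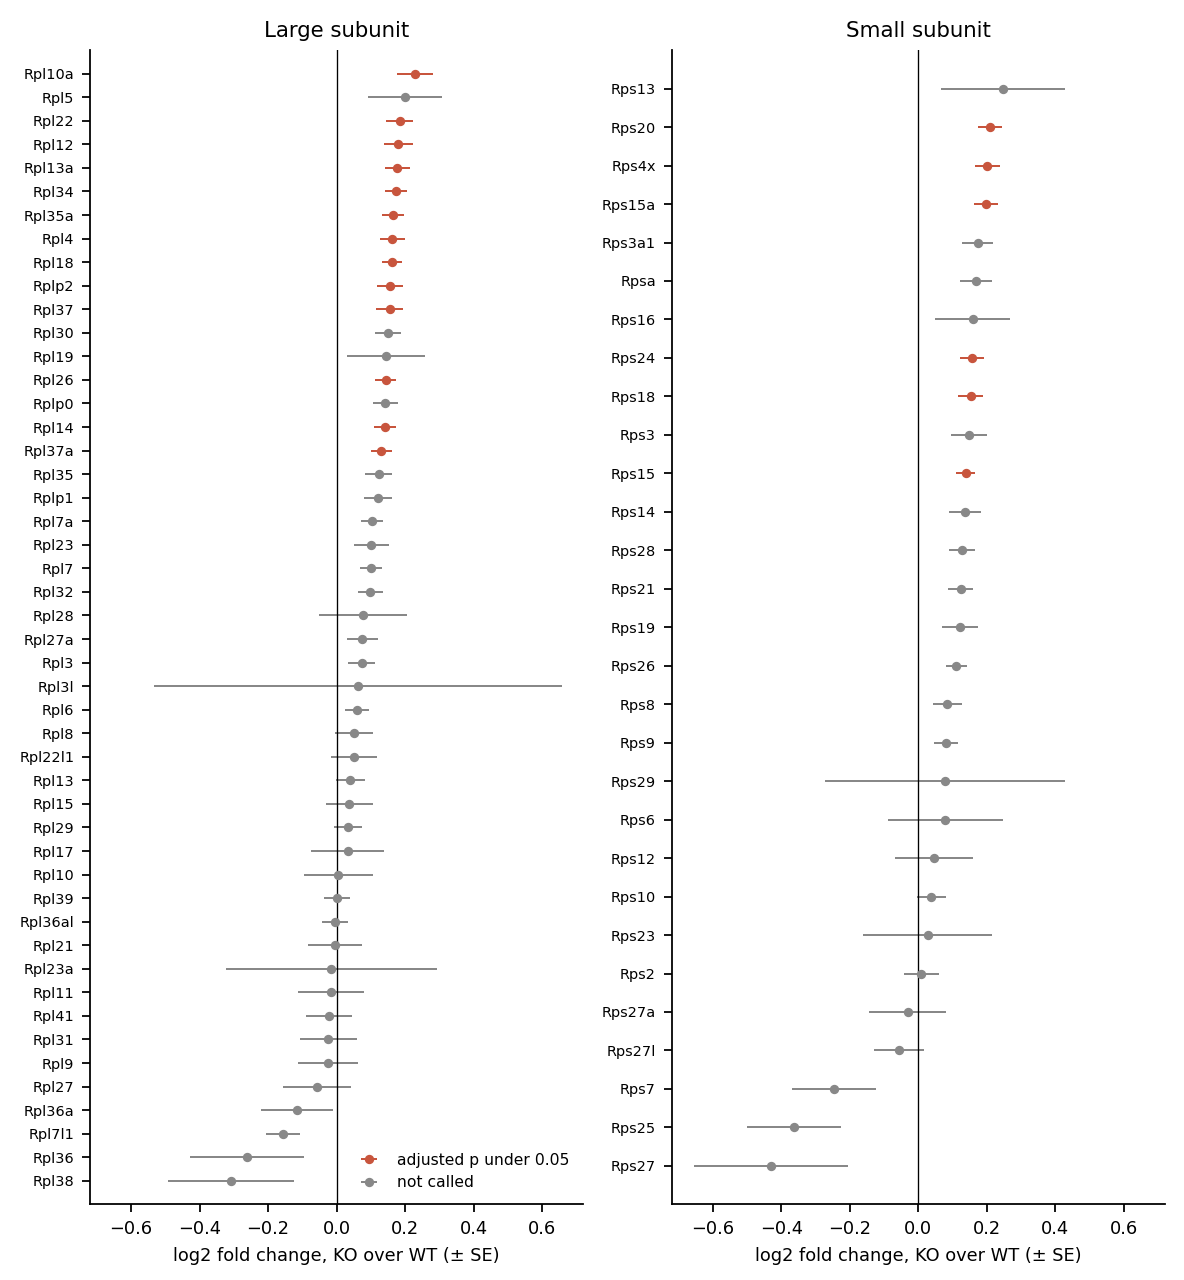
Log2 fold change (KO over WT, ± SE) of 48 of the 49 large and 29 of the 32 small subunit genes tested, ordered by size. Red points passed an adjusted p of 0.05. The called genes shown lie between 0.13 and 0.23, and the longest bars belong to genes with few counts such as Rpl3l, Rpl23a, Rps29 and Rps27.

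Calls were more frequent among deeply counted genes. Of the 52 genes with a mean of at least 1000 counts, 20 were called higher and 48 had a positive change, with a median log2 fold change of 0.13; 4.27% of the 5431 genes of that depth were called higher in the whole data. Of the 29 shallower genes, 2 were called (Rpl10a and Rpl12) and 16 were positive, with a median of 0.03 and a median SE of 0.11, larger than most of the changes called in deeper genes. Among the 28 tested genes with under 50% of their mRNA copied, 12 were called and 26 were positive (median 0.13). Among the 53 with more, 10 were called and 38 were positive (median 0.07). So the higher counts in KO also stood in genes with a small copied share: Rpl4 (16.5% copied) and Rpl22 (24.5%) were called. Rps20 (7.58%) was called too, but its share is taken over an mRNA of 3706 bases. Stretches of it stand in 50 other genes.

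Reads with several matches also moved with genotype. They numbered 83.6 ± 0.941 per 100 gene counts in WT and 86.3 ± 1.24 in KO clones (SD, n = 6 and 5), a difference of 2.63 with a two-sided exact permutation p of 0.00649, and WT 2F (85.3) and KO 4K (84.6) overlapped. As a share of all totals they came to 43.2% and 43.9% (exact permutation p = 0.0281). How many of them came from ribosomal protein mRNA was not tested. Counts assigned to 196 named ribosomal protein pseudogenes made up 0.0155 ± 0.000523% of gene counts in WT and 0.0169 ± 0.000762% in KO clones. Of these pseudogenes 32 were tested and 1 was called higher (3.13%, beside 2.76% of all tested genes), with a median log2 fold change of 0.10. Reads that fit such a pseudogene in a single place cannot be told apart from misplaced reads of its parent gene.

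In the large subunit, Rpl18 and Rpl34 had changes that did not rest on 1 clone. Rpl18 had 169, 175 and 184 CPM in WT and 197, 192, 191, 197 and 202 CPM in KO clones (log2 fold change 0.16 ± 0.03, adjusted p = 0.0121). Rpl34 had 211, 226 and 236 CPM in WT and 253, 256, 258, 244 and 256 CPM in KO clones (0.17 ± 0.03, adjusted p = 0.0139). In both genes all KO clones lay above all WT clones, and the calls held without any 1 clone.

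The proteins around the exit tunnel and the stalks were measured with very different depth. Rpl4, whose long loop reaches into the exit tunnel, had 53309 to 66366 counts per clone. Its level was 2300, 2434 and 2579 CPM in WT clones and 2883, 2714, 2682, 2596 and 2792 CPM in KO clones, where WT 2F and KO 4K nearly touched (log2 fold change 0.16 ± 0.04, adjusted p = 0.0331). Rpl26, at the tunnel's outer opening, was 10.5% higher (adjusted p = 0.0268), whereas Rpl39, a small protein inside the tunnel, had 133 ± 5.85 CPM in WT and 133 ± 5.17 in KO clones (adjusted p = 0.992). The SE of Rpl39 (0.04) is as small as that of called genes.

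Of the stalk proteins, Rplp2 was called and its partners were not. Rplp2 had 326, 335 and 370 CPM in WT and 379, 391, 387, 366 and 370 CPM in KO clones, so that WT 2F overlapped the KO range (0.16 ± 0.04, adjusted p = 0.0396). For Rplp0, the base of the stalk, the log2 fold change was 0.14 ± 0.04 (adjusted p = 0.0560) and for Rplp1 0.12 ± 0.04 (adjusted p = 0.124). Rpl12, which sits at the foot of that stalk, was called at a low level of 23.6 ± 0.814 CPM in WT and 26.7 ± 1.07 in KO clones (0.18 ± 0.04, adjusted p = 0.0391). Rpl10a, the protein of the other stalk, from which the spent tRNA leaves, had 34.5 ± 2.16 CPM in WT and 40.5 ± 1.97 in KO clones, and rose by 17.2% (0.23 ± 0.05, adjusted p = 0.0354).

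Further called large subunit genes were Rpl35a, Rpl13a, Rpl22, Rpl14, Rpl37a and Rpl37. Rpl35a, mutated in some cases of Diamond-Blackfan anaemia, rose by 12.0% (adjusted p = 0.0195) and lost its call, among the 11 fits without 1 clone, in that without KO 3I (adjusted p = 0.0506). Rpl13a, which can also leave the ribosome to repress inflammatory mRNAs, rose from 1010 ± 41.1 to 1143 ± 46.3 CPM (adjusted p = 0.0266). Rpl22, an RNA-binding protein needed in lymphocyte development, rose from 375 ± 17.5 to 427 ± 16.8 CPM (adjusted p = 0.0269). Rpl14 rose by 10.3% (adjusted p = 0.0298) and Rpl37a by 9.44% (adjusted p = 0.0373). Rpl37 stood just inside the threshold (11.3% higher, adjusted p = 0.0495) and its call was lost without any 1 of the 11 clones.

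Among large subunit genes that were not called, the most deeply counted was Rpl8, with 33437 to 44334 counts per clone. Its range in WT clones, 1459 to 1735 CPM, covered the KO range of 1541 to 1766 CPM but for the highest clone (0.05 ± 0.06, adjusted p = 0.656). Rpl41, the smallest ribosomal protein, ran from 127 to 165 CPM in WT and from 135 to 142 CPM in KO clones (adjusted p = 0.889). Its spread lay within WT and went with the title number. WT 1A, 1B and 1C had 127, 128 and 129 CPM, and WT 2D, 2E and 2F had 149, 147 and 165 CPM. Rpl38, which was counted at 10 to 24 reads per clone, had the lowest fitted change in the subunit (-0.31 ± 0.18, adjusted p = 0.446), and Rpl36, with 67 to 133 reads, the next (-0.26 ± 0.17, adjusted p = 0.413). A change of the size called in deeper genes was not detectable at that depth.

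In the small subunit, Rps20, Rps15a and Rps4x had the clearest changes. Rps20, a protein of the head of the subunit, had 268, 278 and 293 CPM in WT clones and 338, 319, 325, 310 and 321 CPM in KO 3H, 3I, 4J, 4K and 4L (log2 fold change 0.21 ± 0.03, adjusted p = 0.00826). Rps15a had 230, 243 and 257 CPM in WT and 278, 283, 268, 281 and 287 CPM in KO clones (0.20 ± 0.03, adjusted p = 0.0113). Rps4x, the X-linked form of a protein that has a Y-linked copy in humans, had 287, 306 and 315 CPM in WT and 366, 350, 329, 340 and 356 CPM in KO clones (0.20 ± 0.04, adjusted p = 0.0140). Each KO clone lay above each WT clone in all 3 genes, and the calls held without any 1 clone.

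**Figure D4:**
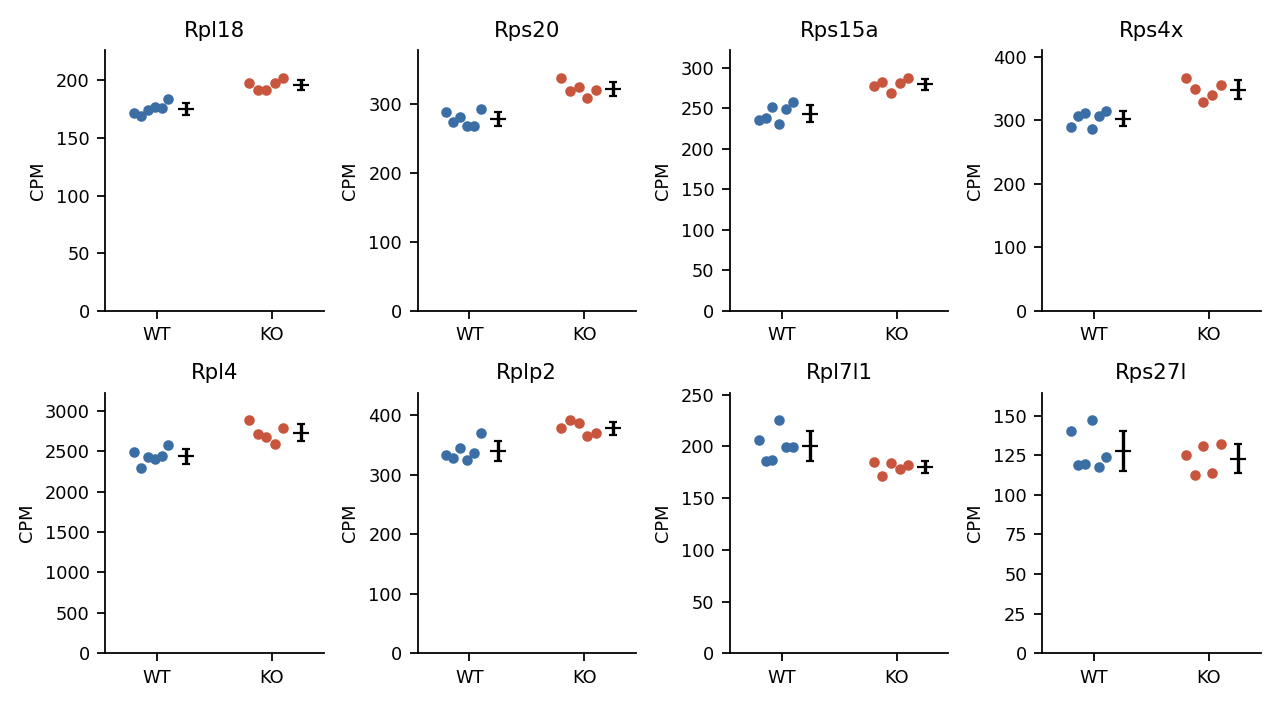
CPM of 8 ribosomal protein genes in each clone (points), with the mean and SD of the 6 WT and 5 KO clones beside them; each axis starts at 0. In Rpl18, Rps20, Rps15a, Rps4x and Rpl4 all KO clones lie above all WT clones; in Rplp2 WT 2F lies above KO 4K and 4L, in Rpl7l1 all KO clones lie below all WT clones, and in Rps27l the genotypes overlap.

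Other small subunit genes were called nearer the threshold. Rps15, close to the decoding centre, rose from 421 ± 13.5 to 463 ± 5.48 CPM (adjusted p = 0.0205). Rps24, 1 of the genes of Diamond-Blackfan anaemia, rose from 260 ± 10.0 to 290 ± 9.46 CPM (adjusted p = 0.0318). Rps18 rose by 11.2% (adjusted p = 0.0395) although WT 2E, at 143 CPM, lay above KO 3I at 141 CPM.

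Just outside the threshold stood Rps3a1 (0.17 ± 0.04, adjusted p = 0.0515), in which every KO clone lay above every WT clone. Rps26, at the mRNA exit, and Rpsa, which also serves as a laminin receptor, had log2 fold changes of 0.11 ± 0.03 (adjusted p = 0.0610) and 0.17 ± 0.05 (adjusted p = 0.0677). Rps3, at the mRNA entry, was counted more deeply than any other small subunit gene, at 41718 to 52538 reads. It had 1785 to 2110 CPM in WT and 1917 to 2261 CPM in KO clones, with WT 2E and WT 2F inside the KO range (0.15 ± 0.05, adjusted p = 0.141). The largest absolute changes among the tested small subunit genes were not called: Rps27 (-0.43 ± 0.22, adjusted p = 0.314), Rps25 (-0.36 ± 0.14, adjusted p = 0.164) and Rps13 (0.25 ± 0.18, adjusted p = 0.484). Rps25, needed for initiation at some internal ribosome entry sites, ran from 11.1 to 18.9 CPM in WT and from 9.68 to 12.4 in KO clones, and the highest WT value was again that of WT 2F.

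Some ribosomal proteins have paralogues, whose values are given beside those of their parents. Rpl7l1, a nucleolar relative of Rpl7, had 186, 199 and 225 CPM in WT clones and 185, 171, 183, 178 and 182 CPM in KO clones. Every KO clone lay below every WT clone, by as little as 185.3 against 185.5 CPM (-0.16 ± 0.05, adjusted p = 0.104). DESeq2 called Rpl7l1 lower (adjusted p = 0.0356), as did the fit with the title number as a random block (adjusted p = 0.0281). Both also called more genes lower in the whole data, 621 and 940 against 273 with edgeR. Over its other alternatives Rpl7l1 was not called. Rpl7 had 486 ± 17.0 CPM in WT and 521 ± 13.0 in KO clones (0.10 ± 0.03, adjusted p = 0.0969). Rpl22l1, which can take the place of Rpl22, had 54.8 ± 4.39 and 56.8 ± 4.04 CPM (0.05 ± 0.07, adjusted p = 0.719) while Rpl22 was called; the difference between the 2 genes' changes was not tested.

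Rps27l, a p53 target, had 117 to 147 CPM in WT and 113 to 132 CPM in KO clones (-0.06 ± 0.07, adjusted p = 0.714). Rpl36al had 54.1 ± 2.59 and 54.0 ± 0.753 CPM (adjusted p = 0.972), and its X-linked relative Rpl36a 5.32 ± 0.232 and 4.91 ± 0.582 CPM (adjusted p = 0.579). Rpl3l, the muscle form of Rpl3, was counted at 6 to 76 reads, and Rpl3 had 140 ± 6.33 CPM in WT and 148 ± 5.19 in KO clones (0.07 ± 0.04, adjusted p = 0.315). The testis form Rpl10l and Rpl39l were not counted in any clone.

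Of the 4 X-linked members, Rps4x was called and Rpl10, Rpl39 and Rpl36a were not. Rpl10, which is added to the large subunit last and shapes its tRNA sites, is the second gene before Taz on the GRCm38 X chromosome, with its start 11.1 kb from that of Taz. It had 13.9, 16.4 and 19.7 CPM in WT and 14.6, 17.1, 18.7, 15.8 and 17.2 CPM in KO clones, with wide overlap (0.01 ± 0.10, adjusted p = 0.985). Emd, Rpl10 and Dnase1l1 before Taz and Atp6ap1 and Fam50a after it were not called, with log2 fold changes from -0.06 to 0.25.

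Several ribosomal proteins bind Mdm2 when ribosome assembly fails, and so raise p53. Rpl5 and Rpl11, which do so together with 5S ribosomal RNA, were counted at 101 to 157 and 132 to 182 reads. The log2 fold change was 0.20 ± 0.11 for Rpl5 (adjusted p = 0.337) and for Rpl11 -0.02 ± 0.10 (adjusted p = 0.943). Of the 13 genes of the checkpoint list, Rpl26 and Mdm2 were called higher and none lower, with the same counts in DESeq2 and limma-voom. At an unadjusted p under 0.05 there were 4 higher and 0 lower. Over all tested genes 2.76% were called higher and 2.29% lower, and Rpl26 is also among the called members above. Mdm2, the ligase that degrades p53 and is itself a p53 target, rose from 70.2 ± 2.75 to 79.2 ± 2.25 CPM (0.17 ± 0.04, adjusted p = 0.0215). Trp53 had 253 ± 7.52 and 255 ± 6.52 CPM (adjusted p = 0.851). The 4 Diamond-Blackfan anaemia genes reported here are only a part of the genes of that disease, so no share can be read from them. Rps24 and Rpl35a were called higher, Rps26 stood outside the threshold, and Rps19 (0.12 ± 0.05, adjusted p = 0.215) was not called.

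The title numbers were also compared within each genotype. In a model of 4 title number means, none of the 81 genes was called by edgeR between WT 1 and 2 or between KO 3 and 4 (background 0% of 11900 genes in each), with either TMM or RLE normalisation. At an unadjusted p under 0.05, there were 8 members in the WT and 0 in the KO contrast. The median log2 fold change of the members was -0.04 (WT 1 minus 2) and 0.00 (KO 3 minus 4). Since no gene of any kind was called in these contrasts, the lack of calls says nothing on the stability of the members.

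Transcripts that work with the ribosome moved in part. Of the 3 ribosomal proteins with other names, Rack1, a scaffold on the head of the small subunit, rose from 2247 ± 75.1 to 2578 ± 65.6 CPM (0.20 ± 0.03, adjusted p = 0.00708). Fau, made as a fusion with a ubiquitin-like protein, was counted at 1.24 ± 0.212 CPM in WT and was not called. Of 6 elongation factor genes, 3 were called higher and 0 lower by edgeR, beside 2.76% and 2.29% of all genes tested. DESeq2 called 4 and 0 and limma-voom 3 and 0, and 4 higher and 1 lower had an unadjusted edgeR p under 0.05. Eef1a1, which brings the tRNA, rose from 2937 ± 171 to 3450 ± 102 CPM (0.23 ± 0.04, adjusted p = 0.0141), Eef2, which moves the ribosome along, from 4234 ± 299 to 4990 ± 245 CPM (adjusted p = 0.0323), and Eef1b2 from 891 ± 38.3 to 985 ± 21.9 CPM (adjusted p = 0.0376).

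Of 16 other transcripts with a TOP tract, 3 were called higher and 0 lower by edgeR, beside 2.76% and 2.29% of all genes tested. DESeq2 called 5 and 0 and limma-voom 3 and 0, and 6 and 0 had an unadjusted edgeR p under 0.05. Their median log2 fold change was 0.08. Gas5, a non-coding host of small nucleolar RNAs, had 172, 192 and 218 CPM in WT clones and 259, 244, 237, 263 and 252 CPM in KO clones (0.38 ± 0.06, adjusted p = 0.00878). The initiation factor genes Eif3f and Eif3e rose by 0.13 ± 0.03 and 0.12 ± 0.03 on the log2 scale (adjusted p = 0.0302 and 0.0416). Npm1, Naca and Eif3l of this list had log2 fold changes of -0.02, -0.00 and -0.02, and were not called.

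Of 16 genes of mTORC1 and Larp1 control, 1 was called higher and 1 lower by edgeR (DESeq2 3 and 1, limma-voom 1 and 0; 4 and 1 at an unadjusted p under 0.05), beside 2.76% and 2.29% of all genes tested. Eif4ebp1, a translation repressor that mTORC1 inactivates, had 82.6, 98.6 and 129 CPM in WT and 149, 166, 150, 130 and 146 CPM in KO clones (0.56 ± 0.11, adjusted p = 0.0176), where WT 2D and KO 4K nearly touched. Rps6kb2, a kinase of the small subunit protein Rps6, fell from 21.9 ± 1.82 to 18.2 ± 0.988 CPM (-0.27 ± 0.07, adjusted p = 0.0468), and limma-voom did not call it. Larp1 (0.10 ± 0.08, adjusted p = 0.546) and Mtor (-0.03 ± 0.04, adjusted p = 0.720) were not called.

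Among 16 genes for the transcription of ribosomal proteins and ribosomal RNA, 4 were higher and 2 lower at an unadjusted edgeR p under 0.05. Of them 3 were called higher and 0 lower (the same counts with DESeq2 and limma-voom), beside 2.76% and 2.29% of all genes tested. The 3 called were Tbpl1, a relative of the TATA-binding protein (0.45 ± 0.07, adjusted p = 0.00617), Gabpb1, the partner of Gabpa (0.22 ± 0.05, adjusted p = 0.0307), and Taf1c of the RNA polymerase I initiation complex (0.18 ± 0.04, adjusted p = 0.0404). Gabpa itself had a negative change and was not called (-0.10 ± 0.04, adjusted p = 0.189). Myc had 455 ± 59.8 CPM in WT and 442 ± 27.7 in KO clones (adjusted p = 0.830). Of 18 tested chaperones and importers of ribosomal proteins, 1 was called lower (5.56%, beside 2.29% of all genes tested). It was Aamp (-0.18 ± 0.04, adjusted p = 0.0370), and 0 were higher by edgeR, DESeq2 or limma-voom (1 at an unadjusted p under 0.05). None of 15 ribosome rescue and quality control genes was called by any of these tools (1 higher and 3 lower at an unadjusted p under 0.05); Abce1, which splits ribosomes and was the most abundant of them, had 497 ± 38.0 and 509 ± 9.97 CPM. Without 1 clone, the counts called higher ran from 1 to 3 for the elongation factors, for the other TOP transcripts and for the transcription list, and from 0 to 2 for the checkpoint and mTORC1 lists. Set beside these, 76 tested nuclear genes of the mitochondrial ribosome had a median log2 fold change of -0.06. EdgeR called 0 of them higher and 2 lower (2.63%), near the 2.29% of all genes tested. DESeq2 called 0 and 5 and limma-voom 0 and 2, and 0 and 11 had an unadjusted edgeR p under 0.05. The difference between the 2 kinds of ribosomal protein was not tested.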

How the data were processed

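Per the labels' protocols, polyA-selected, strand-specific libraries were made from 6 WT and 5 KO clones. For each clone the authors deposited whole-number counts for every Ensembl gene, with no normalisation. The submitters' processing notes name STAR, HTSeq, edgeR and mm9, with no version of any tool. Strand was ignored in counting, per the file names, so a gene and an antisense partner are not separated by strand. Reads with several matches stand in a total of their own, per the deposited counts. Such totals name no gene and were kept from library sizes and from every test. Reads in no gene came to 6.07% (WT) and 6.59% (KO) of gene counts and the no-gene and ambiguous totals together. Of 37583 IDs, 32860 (87.4%, with 99.6% of counts) were matched by ID to an annotation of GRCm38, used for names, lengths, gene order and transcripts. The transcript of a gene was chosen by a CCDS mark first, then by the APPRIS mark of a principal transcript, and then by the shortest length. All 25 pairs of libraries of 1 genotype differed by more than sampling noise (chi-square per gene of 15.0 or more).

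The test between genotypes was edgeR's quasi-likelihood test in its robust form (TMM, filterByExpr), with Benjamini-Hochberg adjustment over all 11900 tested genes and calls at an adjusted p under 0.05. CPM uses TMM-scaled library sizes. An SE is the size of the log2 fold change divided by the root of F. Values with ± are mean ± SD unless marked SE; after a log2 fold change ± is the SE. The test was tried on simulated data. Alternatives were other normalisations, filters and tools, title numbers as blocks, sums or means, length and GC offsets, and leaving out clones or title numbers. The members and gene lists were chosen with earlier results of these data known. Named members are all called ones, the 3 of highest level and of largest change per subunit, stalk proteins, paralogues, X-linked, p53 and Diamond-Blackfan genes and those next to the threshold; from other lists up to 3 called genes or the most abundant, and the 3 genes on each side of Taz. Cd79b, Ebf1, Rpl8, Rpl41, Rpl38, Rpl36, Rps29, Rps3, Trp53, Gabpa, Myc, Mtor, Larp1, Fau, Npm1, Naca and Eif3l, where the rule does not take them, were chosen after their values were seen. Values of a few genes within that rule are not reported here or drawn in the figures. R was version 4.3.3 with edgeR 4.0.16, DESeq2 1.42.0 and limma 3.58.1; Python was 3.11.15 and matplotlib 3.10.9.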

Additional observations from a re-analysis of the deposited data

Results flagged for a closer look

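Among 108 groups of clones examined, 7 had 1 clone far from the others by Dixon's criterion, and chance gives about 1 in 20. In WT, clone 2F was highest for Rpl3 (153 CPM, next 142) and for Rps26 (281 CPM, next 267), and clone 2D for Rpsa (34.1 CPM, next 32.1). In KO, clone 4L was highest for Rpl35a (170 CPM, next 158) and Rpl7 (543 CPM, next 521), clone 4J for Rpl36al (55.3 CPM, next 53.8) and clone 4K for Rps15 (473 CPM, next 462). All 7 were high values. Without WT 2F, Rps26 passed the threshold (adjusted p = 0.0432), and without WT 2D so did Rpsa (adjusted p = 0.0406).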

How the results depend on the processing

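Against 22 members called higher and 0 lower (14 large and 8 small subunit higher), the counts with RLE or upper-quartile normalisation, TMM without the members, the stricter filter, limma-voom, the non-robust fit and the offsets stayed within 1.5 times. No filter gave 6 higher (3 large, 3 small). DESeq2 gave 33 higher, 13 of them in the small subunit, and 1 lower, in the large. The title number as a random block gave 35 higher, 14 of them in the small subunit, and 1 lower, in the large. That fit called 1043 of all 11900 genes higher and 940 lower, against 328 and 273 with edgeR. Summed counts per title number gave 1 (1 large, 0 small) and the model of 4 title number means 9 (6 and 3). Leaving out 1 clone gave 7 to 21 members higher, 4 to 14 in the large and 3 to 8 in the small subunit. Leaving out title number 1, 3 or 4 gave 1 (1 large, 0 small), and leaving out 2 gave 8 (6 and 2). These drop whole sets of clones, and the cause of the other shifts was not tested. The large subunit's median log2 fold change of 0.08 was 0.13 without title number 2. Of single members' values under the alternatives, no called member changed direction, 348 values kept and 246 lost the call. Of the members not called, those that the naming rule takes passed the threshold in 27 values and changed sign in 35; the others are not in these counts. Counts under about 100 per clone limit 12 members. No paired analysis was possible because title numbers and clone names do not cross genotypes.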
